A study of Mus musculus with 18 samples.

Results

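The genes described here are 10 components of astrocytic receptor and calcium signalling: the metabotropic glutamate receptors Grm3 and Grm5, the purinergic receptor P2ry1, the adrenergic receptors Adra1a, Adra2a and Adrb1, the endothelin receptor Ednrb, the orphan-type receptor Gpr37l1, the sphingosine-1-phosphate receptor S1pr1 and the IP3 receptor Itpr2. They were chosen by symbol, and each of the 10 was found in every library among the 55291 gene symbols of the series. Their level in the IP and input fractions and the ratio between these fractions were compared among the KA, AAV control and PBS groups.

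The samples came from wild-type male C57BL/6J mice operated on at 6 weeks of age, in an intrahippocampal kainic acid (KA) model of mesial temporal lobe epilepsy. All 3 groups received AAV_DJ-GfaABC1D-EGFP-Rpl10a in the right CA3, which places a GFP-tagged ribosomal protein under an astrocytic promoter, so RNA recovered with the anti-GFP antibody (IP) is enriched for astrocytes, and an aliquot of the same homogenate (input) holds RNA of the whole dissected hippocampus. The AAV control group had the virus alone, with RNA taken 2 weeks later. The KA group received 50 nL of 20 mM KA in the right dentate gyrus 2 weeks after the virus, with RNA taken 14 days after KA. The PBS group received PBS after the virus, at an interval that the sources used here do not give. Each group had 3 homogenates that pooled the right hippocampi of 3 to 4 mice, hence 18 libraries. The KA group therefore differed from the AAV control group in time after the virus and in a further injection as well as in KA itself, and these cannot be told apart. The PBS group was sequenced in a run of its own, so that run and treatment cannot be told apart between PBS and either other group.

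Astrocytes respond to transmitters largely through G protein-coupled receptors. Receptors coupled to Gq, such as Grm5, P2ry1, Adra1a and Ednrb, activate phospholipase C and so generate IP3, which opens Itpr2, the main IP3-gated calcium release channel of astrocytes. Grm3, Adra2a and S1pr1 couple to Gi proteins that lower cAMP, and Adrb1 couples to Gs and raises it. Grm3 is the principal metabotropic glutamate receptor of mature astrocytes, whereas Grm5 is abundant in hippocampal neurons. Gpr37l1 is a receptor enriched in astrocytes, S1pr1 is expressed in astrocytes and in endothelial cells, and Ednrb takes part in the astrocytic response to injury.

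The loci were read from GENCODE M21 on GRCm38, the build to which the reads had been aligned as mm10. Grm3 spans chr5:9485541-9725170 on the minus strand, S1pr1 spans chr3:115710433-115715072 on the minus strand and Itpr2 spans chr6:146108299-146502223 on the minus strand. Ednrb lies at chr14:103814625-103844402 and Gpr37l1 at chr1:135160234-135167681, both on the minus strand, and neither overlaps another annotated gene. Grm5, at chr7:87584168-88134907 on the plus strand, overlaps 6 other annotated genes. Itpr2 overlaps 3, and Grm3 overlaps 1, Gm42455 on the same strand. P2ry1, at chr3:61002795-61008982 on the plus strand, overlaps the antisense gene Gm37035, whose reads cannot be separated from its own because the library kit does not mark strand. Adra1a lies at chr14:66635251-66771168, Adra2a at chr19:54044151-54048982 and Adrb1 at chr19:56722199-56733113, all on the plus strand.

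RefSeq promoters (GRCm38.p6) were on hand for 7 of the 10 genes. Those of Grm3, Ednrb and Gpr37l1 are shown because these receptors carry the main results below: Grm3 fell in IP, Ednrb fell in IP and rose in input, and the IP to input ratio of Gpr37l1 was lower in KA than in PBS. Each sequence is the 250 bases before the RefSeq start site, 5′ to 3′ on the strand of the gene, with CG dinucleotides in capitals. These starts differ from the GENCODE locus ends given above for 2 genes. The Ednrb stretch lies inside its GENCODE locus, and the Grm3 stretch lies upstream of its locus with a gap between.
Grm3, chr5:9725353-9725602, minus strand: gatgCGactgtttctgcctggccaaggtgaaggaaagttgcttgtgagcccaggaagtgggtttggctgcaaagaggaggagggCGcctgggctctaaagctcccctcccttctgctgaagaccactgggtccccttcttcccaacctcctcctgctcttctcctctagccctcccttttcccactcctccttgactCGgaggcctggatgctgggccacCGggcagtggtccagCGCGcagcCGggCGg
Ednrb, chr14:103843702-103843951, minus strand: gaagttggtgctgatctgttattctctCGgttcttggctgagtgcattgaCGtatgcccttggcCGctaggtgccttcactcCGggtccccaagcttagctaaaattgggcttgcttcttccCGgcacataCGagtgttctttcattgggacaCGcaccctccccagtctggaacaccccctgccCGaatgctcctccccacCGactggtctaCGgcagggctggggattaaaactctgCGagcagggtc
Gpr37l1, chr1:135167682-135167931, minus strand: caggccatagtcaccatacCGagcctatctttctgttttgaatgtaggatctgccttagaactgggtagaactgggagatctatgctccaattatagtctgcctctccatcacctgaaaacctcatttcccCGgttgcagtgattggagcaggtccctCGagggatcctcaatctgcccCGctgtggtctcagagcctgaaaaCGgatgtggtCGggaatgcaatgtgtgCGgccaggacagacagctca
The Grm3 sequence holds 8 CG dinucleotides, the Ednrb sequence 11 and the Gpr37l1 sequence 7, against 22 in the same stretch of Itpr2. In the Grm3 sequence they lie mostly near the start site. The 300-base windows (250 bases before and 50 after the start) of the 7 genes were searched on both strands for the AP-1 motif TGANTCA, present in 7.81% of 32851 mouse promoters, the STAT motif TTCNNNGAA (8.3%), the CRE motif TGACGTCA (1.79%), the NFI motif by name (0.0365%) and the E-box CACGTG (7.15%). The window of Adra2a held an E-box, and none of these letters occurred in the other 6 windows.

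Libraries held 7991681 to 16032180 counts (median 10313125), and their FPKM values are compared between genes per length. Sample #3 of the AAV control group stood apart from #1 and #2 for several of the genes: in IP its FPKM of Adra2a was 1.47 against 4.87 and 5.04, that of Adrb1 0.739 against 2.58 and 2.88, and in input that of Grm5 was 14.8 against 29.3 and 29.2. Sample #3 of the KA and AAV control groups was sequenced in run 2 and #1 and #2 in run 1, so that results are also given without it. Markers checked the fractions. The 10 astrocyte markers had a median IP to input ratio of 8.86 ± 1.94 in the AAV control group, 7.29 ± 2.0 in the PBS group and 2.80 ± 0.0279 in the KA group (SD, n = 3), against 0.163 ± 0.00406, 0.196 ± 0.0491 and 0.418 ± 0.0378 for the 10 neuronal markers. For the 7 oligodendrocyte markers it was 0.666 ± 0.445, 0.694 ± 0.391 and 2.41 ± 0.641, so KA IP was enriched for oligodendrocyte as well as astrocyte RNA. The microglial, oligodendrocyte precursor, endothelial and pericyte lists averaged 0.0692 to 0.49 in KA. The part of these cells in the KA IP values of the 10 genes was not tested. Of the marker lists of other cells, those of oligodendrocytes and microglia were higher in KA IP than in control IP, while the neuronal sums overlapped. Oligodendrocyte markers (7 genes) summed to 1336 to 2531 FPKM in KA IP against 252 to 1060 in AAV control IP and 280 to 567 in PBS IP. Neuronal markers summed to 287 to 389, 288 to 370 and 307 to 546, and microglial markers (8 genes) to 24.0 to 45.3, 11.2 to 20.5 and 15.4 to 22.2. The neuronal sums hide single markers that moved apart. In KA against AAV control IP, Sst was lower (log2 fold change −3.36), and Slc17a7, Snap25, Gad1 and Gad2 were higher (1.25 to 1.48). The other neuronal markers had positive changes that did not pass.

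In the AAV control IP libraries the levels of the 10 genes spread over 3 orders of magnitude. Gpr37l1 was the highest, with 638 ± 147 FPKM (SD, n = 3), followed by S1pr1 with 156 ± 8.15, Grm3 with 40.0 ± 4.48 and Ednrb with 36.7 ± 1.63. The remaining 6 lay between 5.43 ± 1.5 for Grm5 and 0.439 ± 0.126 for Adra1a. The ranges of Gpr37l1, S1pr1 and Grm3 did not touch, those of Grm3 and Ednrb overlapped, and a gap separated Ednrb from Grm5. Below Grm5, each neighbour overlapped the next in the order Itpr2 (4.83 ± 0.892), Adra2a (3.79 ± 2.01), Adrb1 (2.07 ± 1.16), P2ry1 (0.647 ± 0.231) and Adra1a. In KA IP the order changed at one place among the 4 most abundant genes, where Ednrb (22.5 ± 2.92) stood above Grm3 (10.5 ± 0.0389) without overlap. In input, Grm5 took the second place in the AAV control group (24.4 ± 8.36, overlapping S1pr1 at 19.0 ± 3.33) and in the PBS group (21.8 ± 1.18, above S1pr1 at 19.3 ± 1.05).

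**Figure D1:**
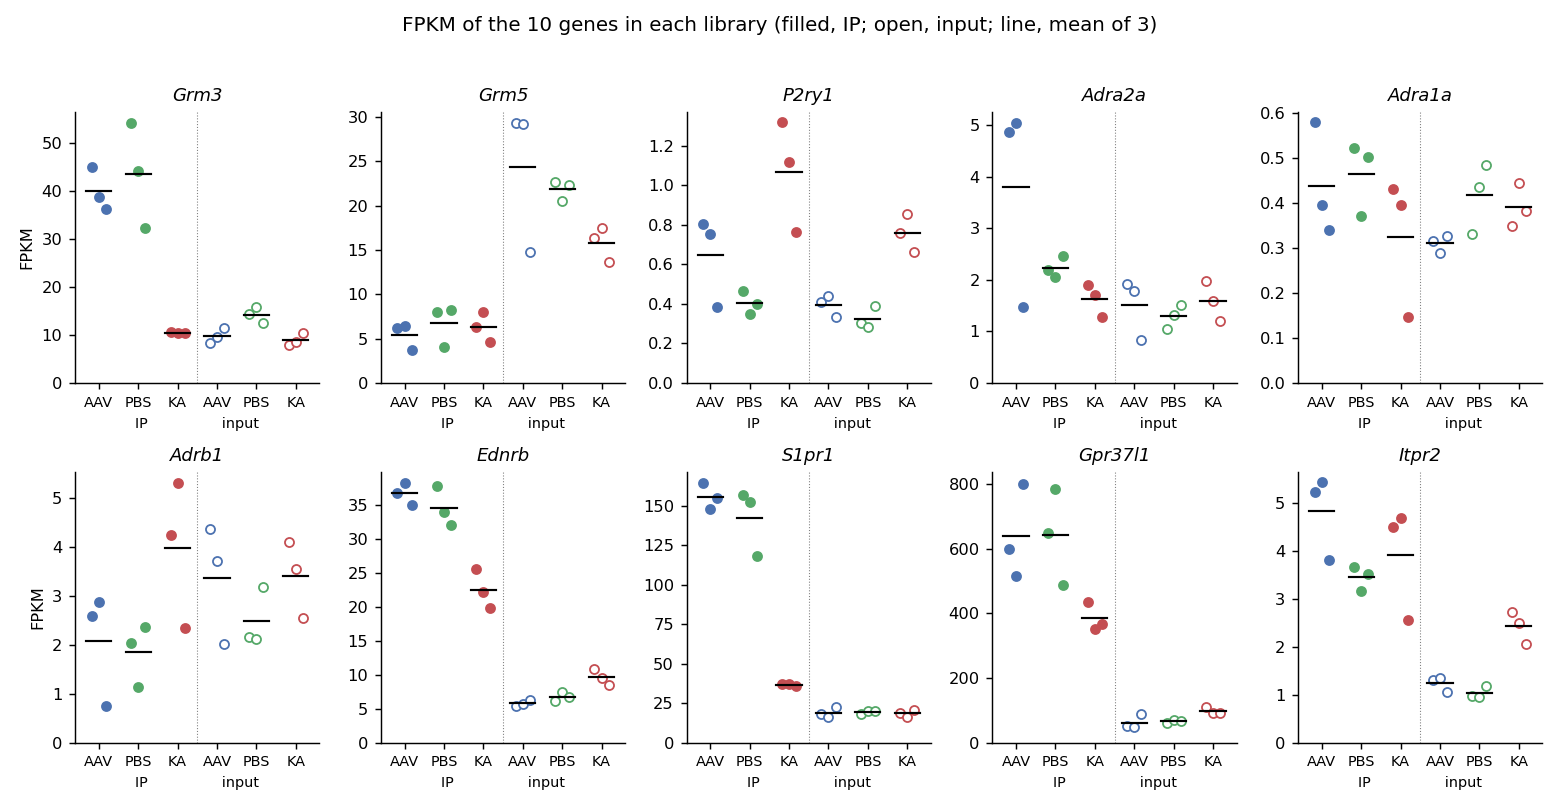
FPKM of each of the 10 genes (y axis, linear from 0, its own scale per gene) in the 18 libraries, by fraction and group on the x axis (AAV, AAV control). Filled points are IP libraries, open points input libraries, and the line is the mean of 3; Grm3 and S1pr1 in KA IP lie far below both control groups, whereas in input the S1pr1 groups overlap and the PBS libraries of Grm3 are the highest.

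In IP RNA, KA was followed by a large fall of the Gi-coupled receptors Grm3 and S1pr1, by about 4-fold against either control, and by a smaller fall of Ednrb. Grm5 and the calcium release channel Itpr2 did not pass the test against either control. The β1-adrenergic receptor Adrb1 was higher than in the PBS group. Of the 10 genes, 7 had FPKM above 1 in every KA and AAV control IP library and were tested. Of these, 3 passed the threshold (adjusted p under 0.05), all lower in KA, where 20.1% of the 9729 genes tested passed and 9.74% passed as lower. Against PBS, 4 of 8 passed, 3 lower and 1 higher, beside 37.0% of the 9847 genes tested (18.2% higher and 18.9% lower).

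Grm3, the receptor through which astrocytes lower cAMP in response to glutamate, had FPKM of 10.5, 10.5 and 10.5 in KA IP, 45.0, 38.8 and 36.3 in AAV control IP and 54.1, 44.1 and 32.2 in PBS IP. The KA libraries were nearly alike, and the lowest control library was about 3 times as high. The log2 fold change was −1.87 (SE 0.157, adjusted p = 4.76e-04, 3.65-fold lower) against AAV control and −2.06 (SE 0.236, adjusted p = 1.86e-04, 4.17-fold lower) against PBS. On log2(FPKM + 1), exact permutation gave a two-sided p = 0.1 against each control, the smallest that 3 samples against 3 allow. With 1 sample left out in turn the change against AAV control stayed between −1.94 and −1.82, with adjusted p from 1.45e-04 (without AAV control #3) to 0.00592 (without KA #2).

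Grm5, the Gq-coupled counterpart, had 6.29, 8.05 and 4.59 FPKM in KA IP, 6.16, 6.43 and 3.71 in AAV control IP and 7.96, 4.08 and 8.19 in PBS IP. These groups overlapped, with log2 fold changes of 0.27 (SE 0.228, adjusted p = 0.443) and −0.081 (SE 0.237, adjusted p = 0.81). Within a library, the ratio of Grm3 to Grm5 in IP was 7.31, 6.04 and 9.78 in the AAV control group, 6.80, 10.8 and 3.94 in the PBS group and 1.68, 1.30 and 2.28 in the KA group. The 3 KA libraries thus lay below every control library in this ratio, while in input the KA values (0.489, 0.489 and 0.757) lay within the range of the controls (0.286 to 0.777). The ratio does not depend on how libraries are scaled to each other.

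S1pr1, the receptor for sphingosine-1-phosphate, had 36.8, 36.9 and 35.6 FPKM in KA IP, against 164, 148 and 155 in AAV control IP and 157, 152 and 118 in PBS IP. No control library came near the KA range. The log2 fold change was −2.04 (SE 0.176, adjusted p = 4.97e-04, 4.11-fold lower) against AAV control and −1.98 (SE 0.232, adjusted p = 2.13e-04, 3.94-fold lower) against PBS, and it stayed between −2.11 and −1.98 against AAV control with 1 sample left out in turn. S1pr1 is also an endothelial gene, and the 7 endothelial markers summed to 4.16 to 5.82 FPKM in KA IP, 9.998 to 15.6 in AAV control IP and 5.37 to 17.4 in PBS IP, with Cdh5 at 0 in at least 1 KA and 1 PBS library. Their part in the fall of S1pr1 was not tested. In a bulk fraction, fewer cells of a type and less RNA per cell cannot be told apart.

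Ednrb, the endothelin B receptor, fell less. Its FPKM was 25.6, 22.1 and 19.8 in KA IP, 36.8, 38.2 and 35.0 in AAV control IP and 37.8, 33.9 and 32.0 in PBS IP, and the KA range lay below both controls. The log2 fold change was −0.65 (SE 0.152, adjusted p = 0.0211) against AAV control and −0.63 (SE 0.181, adjusted p = 0.0198) against PBS. The call rested on the full set of libraries. Against AAV control the adjusted p rose to 0.0644 without KA #1, 0.111 without KA #2, 0.054 without KA #3, 0.0636 without AAV control #1 and 0.0696 without AAV control #2. Against PBS it rose to 0.0558 without KA #1, 0.0965 without KA #2, 0.067 without PBS #1 and 0.0564 without PBS #2. Without the FPKM filter it was 0.121 and 0.253.

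Gpr37l1, the most abundant of the receptors, had 436, 353 and 368 FPKM in KA IP, 599, 515 and 801 in AAV control IP and 650, 786 and 488 in PBS IP. The KA range again lay below both controls, but the controls were spread widely and the log2 fold changes of −0.69 (SE 0.266, adjusted p = 0.108) and −0.76 (SE 0.312, adjusted p = 0.0774) did not pass. Samples of the KA and AAV control groups with the same number shared a run and deviated together. With the replicate number as a block, Gpr37l1 passed against AAV control (log2 fold change −0.65, adjusted p = 0.0361), and so did Adra2a (−1.02, adjusted p = 0.0318). DESeq2 also called Gpr37l1 against AAV control (adjusted p = 0.0387) and against PBS (0.0141), and without PBS #3 the edgeR value against PBS was 0.0226.

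Itpr2, the calcium release channel downstream of the Gq receptors, had 4.51, 4.70 and 2.56 FPKM in KA IP, 5.25, 5.44 and 3.81 in AAV control IP and 3.68, 3.17 and 3.51 in PBS IP. The groups overlapped between KA and either control, and the log2 fold changes were −0.25 (SE 0.212, adjusted p = 0.447) and 0.17 (SE 0.2, adjusted p = 0.537).

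The adrenergic receptors were low in IP and depended on single libraries. Adra2a had 1.90, 1.71 and 1.28 FPKM in KA IP, 4.87, 5.04 and 1.47 in AAV control IP and 2.20, 2.05 and 2.46 in PBS IP. It lay below PBS without overlap but did not pass (−0.46, adjusted p = 0.098), and against AAV control it went from −1.13 (SE 0.395, adjusted p = 0.081) to −1.50 (adjusted p = 6.15e-04) without AAV control #3. Adrb1, which raises cAMP on binding noradrenaline, had 4.25, 5.31 and 2.35 FPKM in KA IP and 2.03, 1.14 and 2.37 in PBS IP. It was higher in KA than in PBS (log2 fold change 1.11, SE 0.293, adjusted p = 0.014), although the ranges overlapped through KA #3, and without KA #2 it no longer passed (0.88, adjusted p = 0.0582). Against AAV control (2.58, 2.88 and 0.739) it was not tested because 1 library was under the filter. Restricted to run 1, which left only #1 and #2 of each group, Adrb1 was also higher in KA than in AAV control (0.87, adjusted p = 0.00391). These samples were more alike than either was to #3. In AAV control IP, #1 and #2 differed by 8.35 times counting noise, against 92.1 and 102 times with #3. With all KA libraries and without AAV control #3, Adrb1 did not pass (0.63, adjusted p = 0.123). Adra1a stayed under 1 FPKM in all 18 libraries, at 0.146 to 0.581 and 14 to 73 counts, and was not tested.

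P2ry1, a Gq-coupled receptor for ADP, lay around the FPKM filter of 1. It had 1.32, 1.12 and 0.765 FPKM in KA IP (36 to 63 counts), 0.804, 0.756 and 0.382 in AAV control IP and 0.465, 0.347 and 0.40 in PBS IP. Its KA range lay above that of PBS. Fitted without the FPKM filter, it was higher than in PBS (log2 fold change 1.57, SE 0.385, adjusted p = 5.48e-04) and did not pass against AAV control (0.86, adjusted p = 0.152). In that fit the median of all genes was −0.56 against PBS, so that a gene at the centre of the distribution did not stand at 0. Counted by range alone over all 10 genes, KA lay below AAV control in IP for 4 (Grm3, Ednrb, Gpr37l1 and S1pr1) and above it for 0, where the groups did not overlap for 37.0% of the genes tested (16.8% higher and 20.2% lower). Against PBS it lay below for 5 (these 4 and Adra2a) and above for 1 (P2ry1), beside 46.0% of the genes tested (22.7% higher and 23.3% lower). P2ry1 was not among the genes tested.

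**Figure D2:**
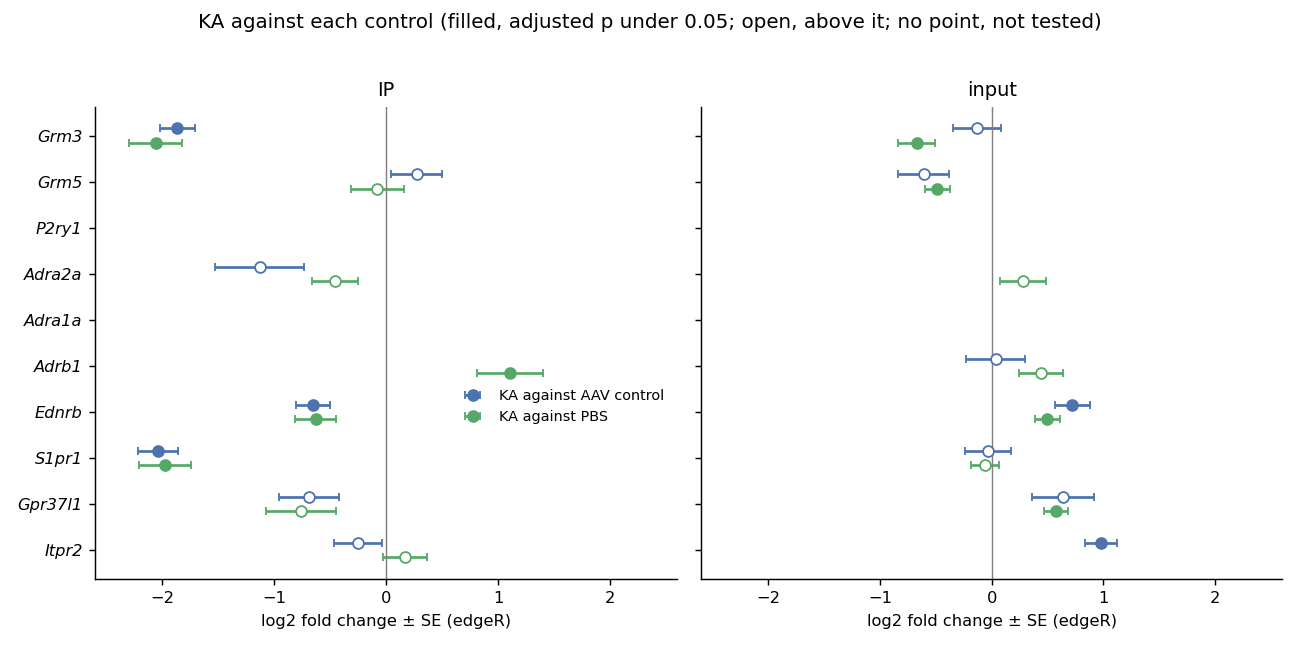
Log2 fold change of KA against AAV control and against PBS (x axis, edgeR, error bars ± SE) for each gene (y axis), in IP on the left and input on the right. Filled points passed an adjusted p of 0.05; Grm3 and S1pr1 stand near −2 in IP, while Ednrb lies below 0 in IP and above 0 in input.

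Input RNA, from the whole hippocampus, showed another picture. Ednrb and Itpr2 rose after KA against AAV control, and Ednrb and Gpr37l1 rose against PBS, whereas Grm3 and Grm5 fell against PBS. S1pr1 did not pass against either. Of the 7 genes tested against AAV control 2 passed, both higher, where 4.49% of the 10809 genes tested passed, 3.54% as higher and 0.944% as lower. Against PBS 4 of 7 passed, 2 in each direction, beside 27.7% of 10849 (15.5% higher and 12.2% lower).

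Ednrb had 10.9, 9.45 and 8.53 FPKM in KA input, 5.34, 5.72 and 6.32 in AAV control input and 6.09, 7.38 and 6.75 in PBS input. In the fraction of all cells it was thus above both controls in every KA sample, the reverse of its order in IP. The log2 fold change was 0.72 (SE 0.156, adjusted p = 0.0419) against AAV control and 0.50 (SE 0.112, adjusted p = 0.00841) against PBS. The first no longer passed without KA #1 (0.221), KA #2 (0.148), KA #3 (0.0894), AAV control #1 (0.186) or AAV control #2 (0.154), and with the replicate block its adjusted p was 0.019.

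Itpr2 had 2.72, 2.5 and 2.06 FPKM in KA input, 1.30, 1.34 and 1.06 in AAV control input and 0.968, 0.961 and 1.19 in PBS input. No control library reached the lowest KA value. The log2 fold change was 0.98 (SE 0.14, adjusted p = 0.00813, 1.97-fold) against AAV control, with adjusted p of 0.0637 without KA #1 and 0.0505 without KA #2. Against PBS it was removed by the FPKM filter, and without that filter it was 1.19 (SE 0.146, adjusted p = 2.91e-14).

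Gpr37l1 had 110, 92.6 and 92.5 FPKM in KA input, 50.8, 47.3 and 88.3 in AAV control input and 59.5, 70.4 and 65.9 in PBS input. It rose against PBS (log2 fold change 0.58, SE 0.108, adjusted p = 0.00329). Against AAV control it was 0.64 (SE 0.28, adjusted p = 0.283), and 1.06 (adjusted p = 7.33e-04) without AAV control #3, which alone reached 88.3.

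Grm5, which is abundant in neurons, had 16.3, 17.5 and 13.7 FPKM in KA input, 29.3, 29.2 and 14.8 in AAV control input and 22.7, 20.5 and 22.3 in PBS input. It fell against PBS (−0.48, SE 0.11, adjusted p = 0.00895), and against AAV control it was −0.61 (adjusted p = 0.208) with all samples and −0.84 (adjusted p = 0.00154) without AAV control #3. Grm3 had 7.98, 8.54 and 10.4 FPKM in KA input, 8.38, 9.58 and 11.5 in AAV control input and 14.3, 15.8 and 12.4 in PBS input. It fell against PBS (−0.67, SE 0.164, adjusted p = 0.0125) but not past the threshold without KA #1 (0.0562) or PBS #2 (0.0659), and against AAV control it was −0.13 (SE 0.215, adjusted p = 0.814). S1pr1, at 16.4 to 20.8 FPKM in KA input, 16.3 to 22.7 in AAV control input and 18.1 to 19.95 in PBS input, had log2 fold changes of −0.033 (SE 0.207, adjusted p = 0.955) and −0.058 (adjusted p = 0.766). By range alone, KA lay above AAV control in input for 5 genes (P2ry1, Adra1a, Ednrb, Gpr37l1 and Itpr2), beside 22.6% of the genes tested without overlap (12.2% higher and 10.4% lower). P2ry1 and Adra1a were under the FPKM filter and not among the genes tested. Against PBS the KA range lay above for 4 (P2ry1, Ednrb, Gpr37l1 and Itpr2) and below for 2 (Grm3 and Grm5), beside 35.9% of the genes tested (18.4% higher and 17.5% lower). P2ry1 and Itpr2 were not among the genes tested against PBS.

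Cell type markers moved in input beside these values. All 7 tested microglial markers rose in KA against AAV control, and their list (8 genes) summed to 698 to 1231 FPKM in KA input against 77.8 to 129 in AAV control input. Of the 10 astrocyte markers 4 rose, with a median log2 fold change of 0.71, and the list summed to 1405 to 1448 against 547 to 916. The 10 neuronal markers summed to 1620 to 1838 against 2362 to 2571. The part of these lists in the input values of the 10 genes was not tested.

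PBS and AAV control, the pair of controls, did not differ past the threshold for any of the 10 genes in edgeR with all libraries: 0 of 7 tested in IP and 0 of 6 in input, where 0.0% of the 10667 and 10924 genes tested passed (1153 and 901 at an unadjusted p under 0.05, and 16 and 30 past the threshold in DESeq2). At an unadjusted p under 0.05 there was 1 gene in each fraction, Itpr2 in IP and Grm3 in input, and DESeq2 and limma-voom called 0 of the genes in either. By range alone, PBS lay below AAV control for 1 gene in IP (Itpr2), beside 13.4% of the genes tested (4.88% higher and 8.53% lower), and above it for 2 in input (Grm3 and Adra1a), beside 10.9% (5.0% higher and 5.9% lower). Adra1a was not among the genes tested. Leaving out AAV control #3 changed the calls, for the series as for these genes: 4076 of 11164 genes tested then passed in input and 1122 of 10951 in IP. The AAV control libraries left were all of run 1 and the PBS libraries of another run, so run and group cannot be told apart. In input 6 of the 10 genes passed, among them Grm3 (log2 fold change 0.74, adjusted p = 0.00111) and Gpr37l1 (0.49, adjusted p = 8.72e-04) as higher in PBS, and in IP Adra2a passed as lower (−1.06, adjusted p = 0.0167).

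The IP to input ratio of FPKM, taken within each homogenate, describes how far a transcript was concentrated in the IP fraction. In the AAV control group 5 of the 6 genes tested were higher in IP and 1, Grm5, was lower, and all 6 passed (39.7% of 9961 genes did, 19.4% as higher and 20.3% as lower). In the PBS group 6 of 7 passed (56.3% of 10401, 28.6% higher and 27.7% lower), and in the KA group 5 of 8 (34.4% of 10098, 19.1% higher and 15.3% lower). In every group Gpr37l1 had the highest ratio and Grm5 the lowest.

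Gpr37l1 was 11.8, 10.9 and 9.07 times as high in IP as in input in the AAV control homogenates, 10.9, 11.2 and 7.40 times in PBS and 3.97, 3.81 and 3.97 times in KA. S1pr1 had ratios of 9.10, 9.08 and 6.81 in AAV control, 8.65, 7.62 and 5.91 in PBS and 1.98, 2.24 and 1.71 in KA. Ednrb had 6.88, 6.69 and 5.54 in AAV control, 6.21, 4.59 and 4.74 in PBS and 2.35, 2.34 and 2.32 in KA. For these 3 receptors each KA homogenate lay below each control homogenate, and every ratio was above 1. The share of all genes whose ratios did not overlap is not given here.

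Grm3 came close to equal levels in both fractions after KA. Its ratio was 5.37, 4.05 and 3.16 in AAV control, 3.79, 2.79 and 2.59 in PBS and 1.32, 1.23 and 1.01 in KA. Tested as IP against input with edgeR, it passed in AAV control (log2 2.16, SE 0.202, adjusted p = 2.07e-04) and in PBS (1.77, adjusted p = 7.92e-05) but not in KA (0.44, SE 0.166, adjusted p = 0.0737). The fractions come from the same homogenates, and with the homogenate as a block Grm3 passed in KA as well (0.45, adjusted p = 0.00654), as it did without KA #3 (0.56, adjusted p = 0.00345). Itpr2 had ratios of 4.03, 4.05 and 3.60 in AAV control, 3.80, 3.30 and 2.96 in PBS and 1.66, 1.88 and 1.24 in KA, and in KA it lost its call without KA #1 (adjusted p = 0.0838) or KA #2 (0.11).

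Grm5 ran the other way, with ratios of 0.21, 0.22 and 0.251 in AAV control, 0.351, 0.199 and 0.367 in PBS and 0.386, 0.461 and 0.335 in KA. Every homogenate had less Grm5 in IP than in input, and the KA ratios were above those of AAV control. They overlapped PBS as FPKM ratios and lay above PBS with TMM-normalized CPM. Among the scarcer receptors, Adra2a averaged 2.38 ± 0.560, 1.76 ± 0.293 and 1.04 ± 0.0658 in AAV control, PBS and KA, Adrb1 0.577 ± 0.205, 0.743 ± 0.203 and 1.15 ± 0.308, P2ry1 1.61 ± 0.422, 1.27 ± 0.261 and 1.4 ± 0.306, and Adra1a 1.42 ± 0.404, 1.16 ± 0.378 and 0.838 ± 0.431 (SD, n = 3). Each Adra2a ratio in KA (0.961, 1.08 and 1.07) lay below every control ratio of this gene. The share of all genes whose ratios did not overlap is not given here either. In edgeR the Adra2a ratio difference did not pass against PBS (log2 −0.74, adjusted p = 0.0541) and was not tested against AAV control.

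**Figure D3:**
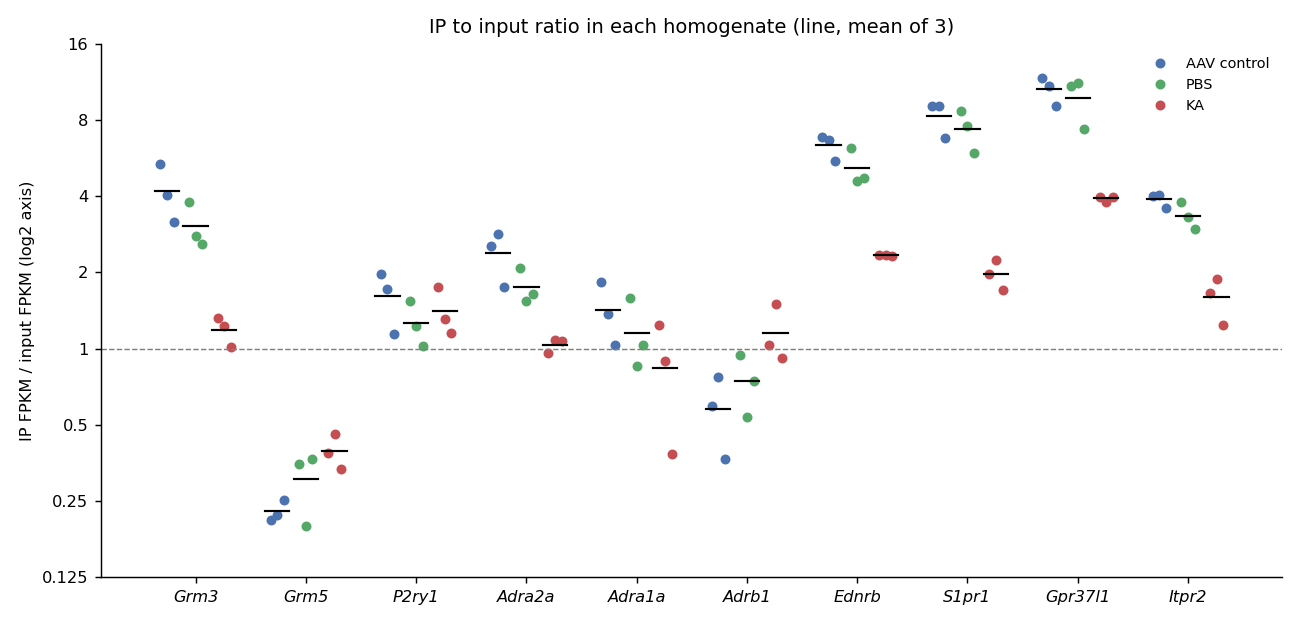
FPKM in IP divided by FPKM in input (y axis, log2 scale) for each of the 10 genes (x axis) in each of the 9 homogenates, coloured by group, with a line at the mean of 3 and a dashed line at 1. The KA points of Grm3, Ednrb, S1pr1, Gpr37l1, Itpr2 and Adra2a lie below all 6 control points (share over all genes not given). The points of Grm5 lie below 1 in every group.

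Whether KA changed this ratio was tested as a difference of differences over the 12 libraries of KA and a control. Of the 6 genes tested against AAV control 4 passed, all with a lower ratio in KA, where 13.2% of 9180 genes passed, 7.18% as higher and 5.98% as lower. They were S1pr1 (log2 −1.99, SE 0.258, adjusted p = 6.72e-04), Grm3 (−1.72, SE 0.254, adjusted p = 0.00118), Ednrb (−1.36, SE 0.19, adjusted p = 8.77e-04) and Itpr2 (−1.21, SE 0.251, adjusted p = 0.00781). Gpr37l1 narrowly missed (−1.32, SE 0.406, adjusted p = 0.0522). With the homogenate as a block it passed (−1.35, adjusted p = 7.86e-05), and so did Grm5 in the other direction (0.86, adjusted p = 8.59e-04). Itpr2 was at 0.0503 without AAV control #1, and without AAV control #3 Gpr37l1 was at 7.97e-04 and Grm5 at 0.0103.

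Against PBS 4 of 7 passed, again all lower, beside 25.5% of 9305 genes (10.8% higher and 14.7% lower). S1pr1 changed by −1.93 (SE 0.262, adjusted p = 3.06e-04), Grm3 by −1.403 (SE 0.315, adjusted p = 0.00623), Gpr37l1 by −1.35 (SE 0.325, adjusted p = 0.00881) and Ednrb by −1.14 (SE 0.206, adjusted p = 0.00183). With the block Adra2a passed too (−0.74, adjusted p = 0.0251). PBS and AAV control did not differ past the threshold in the ratio of any of the 5 genes tested (0.0% of 9597 genes passed), none of them at an unadjusted p under 0.05 in edgeR and none in DESeq2 or limma-voom. The KA values against the controls share the KA libraries.

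Astrocyte markers moved in the same plane. Of the 10 markers tested, 7 had a lower IP to input ratio in KA than in AAV control past the threshold, with a median log2 difference of −1.34. Gfap, the filament protein of reactive astrocytes, rose by 2.49 in IP and 3.42 in input, and the water channel Aqp4 by 0.99 and 2.08. The gap junction gene Gja1 fell by 1.42 on the log2 scale in IP and had 0.38 in input (adjusted p = 0.216), close to the glutamate transporters Slc1a2 (−1.42 and 0.49) and Slc1a3 (−1.19 and 0.57). Ednrb, Gpr37l1 and Itpr2 lay within the span of these markers, and Grm3 and S1pr1 lay below all 10 in IP and in input. The part of the marker lists in the ratios of the 10 genes was not tested.

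**Figure D4:**
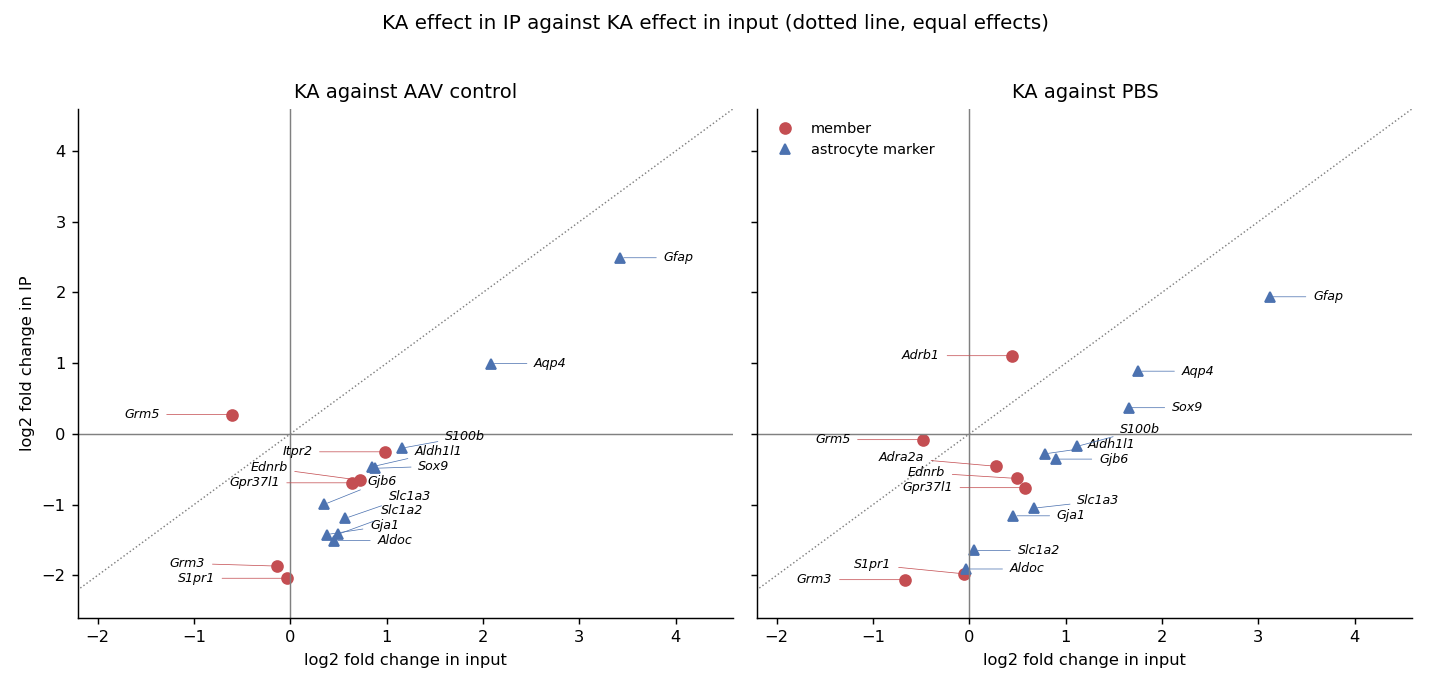
Log2 fold change of KA in IP (y axis) against that in input (x axis) for the genes tested in both fractions (red circles) and the 10 astrocyte markers (blue triangles), against AAV control on the left and PBS on the right. The dotted line marks equal change; against AAV control Grm5 is the only circle above it, and Grm3 and S1pr1 hold the lowest places in IP.

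The rest of the pathway was followed in 13 lists of 172 genes found in the files. In IP, 104 of them were tested for KA against AAV control, and 42 passed (40.4%, against 20.1% of all genes tested), 29 higher and 13 lower, with a median log2 fold change of 0.23 against −0.02 over all genes tested. The lists were chosen with earlier results of these data known. The shares that passed, here and per list below, thus only describe the lists and do not test them against all genes. Of the 29 that were higher, 28 had a mean IP to input ratio below 1 in the PBS homogenates, which this comparison did not use, and among all 1012 genes that were higher 826 (81.6%) did. Of the 13 that were lower, 9 had a ratio above 1, against 863 of 948 (91%) over all genes. Leaving out 1 library moved the 42 to between 18 and 57. The list genes below are given for KA against AAV control in IP unless PBS is named. Of the 42, Grm7, Gabbr2, Calr, Micu2, Prkcb, Adcy5, Pde4a, Plcb3 and Trpc1 did not pass against PBS in IP. The others passed against PBS in the same direction.

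Among other receptors reported in astrocytes 8 of 11 tested passed. Adgrg1 (−1.49, adjusted p = 0.00703), Ntsr2 (−1.22), Adcyap1r1, the PACAP receptor (−1.19), Cnr1, the cannabinoid receptor (−1.01), and Gprc5b fell. Gprc5b had 7.27, 7.26 and 6.21 FPKM in KA IP against 15.8, 14.1 and 13.5 in AAV control IP and 13.2, 12.1 and 12.1 in PBS IP (log2 fold change −1.01, SE 0.142, adjusted p = 0.00329), a fall without overlap. Chrm1, the muscarinic receptor of pyramidal cells, rose (1.30, SE 0.173, adjusted p = 0.0027) from 2.53, 2.19 and 2.27 to 5.05, 5.94 and 5.53 FPKM while staying below input (10.5, 11.1 and 10.9 in KA). Its input FPKM in AAV control was 17.4, 14.4 and 16.8 (KA against AAV control −0.57, adjusted p = 0.069). Adora1 and Gabbr2 rose by 0.61 and 0.63. Against PBS, Adora1 also rose (0.65, adjusted p = 0.019), but Gabbr2 did not pass (0.12, adjusted p = 0.708).

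Few of the receptors' relatives were abundant enough to test. Of 5 other metabotropic glutamate receptors 2 were tested and Grm7 rose (0.89, SE 0.171, adjusted p = 0.0112). Grm7 did not pass against PBS (0.40, adjusted p = 0.174). Of 6 other P2Y and 6 other adrenergic receptors 1 each was tested, and neither P2ry12 nor Adra2c passed. Of 8 other endothelin, S1P and LPA receptors 2 were tested, and Lpar1, which oligodendrocytes also express, rose from 4.43, 6.05 and 8.34 to 21.1, 16.5 and 8.66 FPKM (1.30, adjusted p = 0.0351) beside a rise of the oligodendrocyte markers Mobp and Cldn11.

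Downstream, 1 of the 9 G protein α subunits tested passed the threshold (Gnai1, 1.06, adjusted p = 0.00696), beside 20.1% of all genes. Desensitization genes split, with 4 higher and 3 lower of 12. Rgs2, a GTPase-activating protein that limits Gq signalling, had 117, 82.3 and 119 FPKM in KA IP against 7.20, 8.22 and 5.42 in AAV control IP and 6.38, 4.37 and 7.51 in PBS IP (log2 fold change 4.01, SE 0.261, adjusted p = 1.95e-04). It rose in input too, from 28.7, 22.9 and 22.7 to 140, 115 and 85.9. Rgs10, a microglial as well as a neuronal gene, rose to 17.5, 16.8 and 15.4 from 5.86, 4.89 and 3.47 (1.88, adjusted p = 0.00103). Arrb1 (β-arrestin 1, −0.91), the receptor kinase Grk3 (−1.22) and Rgs12 (−1.15) fell.

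Phospholipase C and IP3 metabolism had 1 gene higher and 1 lower of 10. Plcb3, a phospholipase C of the Gq pathway, had 3.10, 3.39 and 1.55 FPKM in KA IP against 6.55, 6.19 and 3.59 in AAV control IP (−0.97, SE 0.287, adjusted p = 0.0488), but 2.96, 2.48 and 2.74 in PBS IP. Itpka, the neuronal IP3 kinase, rose (0.86, adjusted p = 0.0279). Of the 15 genes of calcium stores 5 rose and 1 fell, led by the mitochondrial uniporter Mcu (7.14, 6.55 and 5.85 against 3.39, 3.23 and 2.46 FPKM, 1.17, SE 0.155, adjusted p = 0.00265) and its regulator Micu3 (0.91, adjusted p = 0.0188). Of 6 plasma membrane transport genes the calcium pump Atp2b2 rose (1.003, adjusted p = 0.00653) and Atp2b3 (−0.93, adjusted p = 0.0198) and Trpc1 fell.

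Calmodulin and calcium effectors had 5 higher and 0 lower of 15. Calm2, a calmodulin gene, had 4154, 3879 and 5798 FPKM in KA IP against 649, 687 and 719 in AAV control IP (2.82, SE 0.311, adjusted p = 0.00124). In input it had 9659, 9461 and 7663 in KA and 9498, 9312 and 9501 in AAV control (−0.085, adjusted p = 0.905). Camkk2 rose by 1.21 (adjusted p = 0.00523). In the cAMP arm 6 rose and 1, Adcy2, fell of 14, led by the protein kinase A subunits Prkar2b (2.19, SE 0.198, adjusted p = 5.43e-04) and Prkar1b (1.66, adjusted p = 0.0038). Among ligand genes 1 of 6 rose, Ece1, the enzyme that matures endothelin (0.81, adjusted p = 0.0346). The neuronal markers Slc17a7, Gad1, Gad2 and Snap25 also rose in KA IP against AAV control (4 of 10 markers, with Sst lower), and their part in these lists was not tested. Against PBS, Slc17a7, Snap25 and Tubb3 passed as higher and Sst as lower. Gad1 (adjusted p = 0.175) and Gad2 (0.129) did not pass there.

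**Figure D5:**
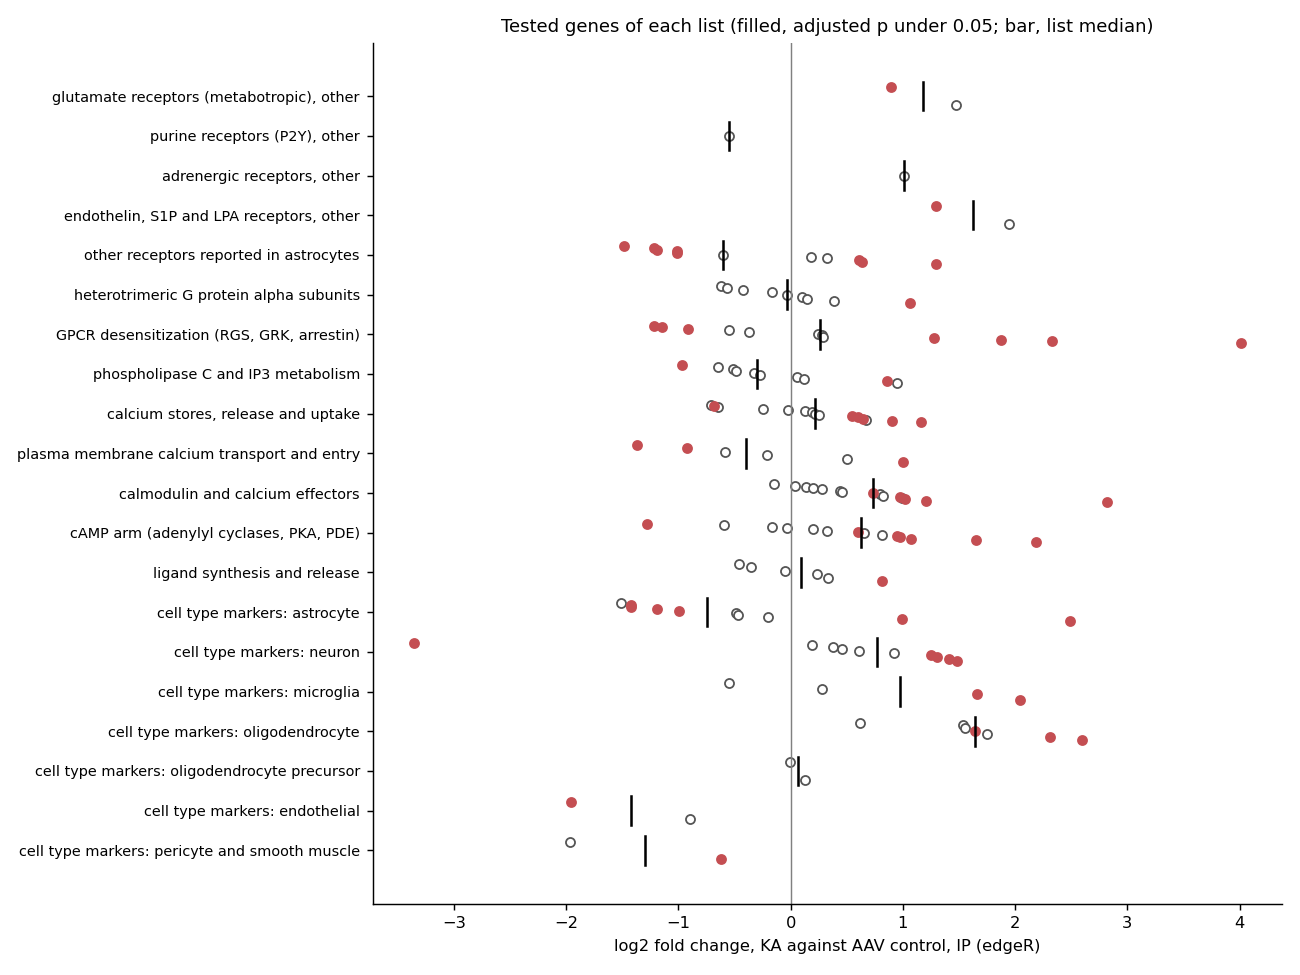
Log2 fold change of KA against AAV control in IP (x axis) for each tested gene of the 13 pathway lists and the 7 marker lists (y axis). Filled points passed an adjusted p of 0.05 and the bar is the list median; the rightmost filled points among the pathway lists are Rgs2 at 4.01 and Calm2 at 2.82.

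Across the 18 libraries the genes most like each of the 10 were found by the Pearson r of log2 CPM among 13275 genes with a mean FPKM of at least 1. These libraries differ mainly in fraction, which the correlations share, and they are given as a description. Nearest to Grm3 were 2900052N01Rik (0.981), Ahcyl1, an IP3 receptor binding protein (0.975), and Gstm5 (0.974). Genes close to S1pr1 included Kctd14 (0.996) and Bcan, the proteoglycan brevican (0.994). Gpr37l1 was nearest to Acsbg1, Cmtm5 and F3 (0.997 to 0.998), and Ednrb to Pon2, Pttg1ip and Gstk1 (each 0.993). Itpr2 was nearest to Zfp36l1 (0.988), Grm5 to Prrt1 (0.989), Adra2a to Clcn3 (0.983) and Adrb1 to Slc5a3 (0.948). Among the 10 genes themselves, Ednrb and Gpr37l1 had the highest correlation (0.991), followed by Grm3 and S1pr1 (0.948). The group means of the IP ratio of Ednrb to Gpr37l1 were close, at 0.0598 ± 0.0154 in AAV control, 0.0557 ± 0.0115 in PBS and 0.0584 ± 0.00444 in KA, although single control libraries ranged from 0.0431 to 0.0743. The IP ratio of S1pr1 to Gpr37l1 was 0.251 ± 0.0509, 0.226 ± 0.0279 and 0.0952 ± 0.0101 (SD, n = 3). The last did not overlap between KA and either control.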

How the data were processed

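RNA was sequenced from 18 libraries of the KA, AAV control and PBS groups, an IP and an input library per homogenate. The authors aligned reads with STAR to mm10, and featureCounts and edgeR are named in the submitters' processing notes without versions. The deposited counts are whole numbers per gene symbol without normalization. In the deposited FPKM files, 34275 of 34315 genes kept 1 constant length when FPKM was set against counts and library totals (coefficient of variation under 1%). The annotation release is not given in the sources used here. Of the symbols, 53292 (96.4%) matched GENCODE M21.

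Counts were tested with edgeR 4.0.16 in R 4.3.3 (quasi-likelihood test, TMM, Benjamini-Hochberg adjustment over all genes tested). A gene needed FPKM above 1 in every compared library, and passed the threshold at an adjusted p under 0.05. Fits used the libraries of the groups compared. The difference of IP to input ratios was an interaction contrast over 12 libraries. SE was the absolute log2 fold change over the square root of F. The procedure was tested on simulated independent counts with a fixed dispersion and no effect of run or homogenate. That test therefore cannot show how the procedure behaves where runs or homogenates differ. Alternatives were DESeq2 1.42.0, limma-voom (limma 3.58.1), RLE factors, no filter, a replicate block, sequencing run and leaving out samples. For each of the 10 genes, group FPKM also entered exact permutation tests, two-sided, after adding 1 and taking log2 (SciPy 1.17.1).

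The genes and lists were chosen with earlier results of these data known. Named list genes were up to 2 per list with the smallest p among those past the threshold for KA against AAV control in IP, and other names given in lists of members that passed were chosen after their values were seen. Some genes that these rules select are not reported here. Same-numbered IP and input libraries come from the same homogenate, and their residuals correlated at 0.155 to 0.752. Residuals of same-numbered KA and AAV control samples correlated at 0.348 to 0.551, so that the block is given beside results it changes. KA and PBS samples were not paired. Pairs of replicates differed by 4.48 to 109 times counting noise, so none was a duplicate. Replicates are pools of mice. A count of 0 is compatible with up to 3 counts, for counting error only.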

Additional observations from a re-analysis of the deposited data

Results flagged for a closer look

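For 4 genes the effect of KA differed between IP and input against AAV control, by the interaction test in edgeR on the log2 scale: Grm3 (−1.72), Ednrb (−1.36), S1pr1 (−1.99) and Itpr2 (−1.21). Against PBS the same test passed for Grm3 (−1.40), Ednrb (−1.14), Gpr37l1 (−1.35) and S1pr1 (−1.93). S1pr1 fell in IP and did not pass in input. Grm3 fell in IP, and in input it did not pass against AAV control and fell less against PBS (−0.67). Itpr2 rose in input against AAV control, Gpr37l1 rose in input against PBS, and Ednrb fell in IP and rose in input. Both sets use the same KA libraries.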

How the results depend on the processing

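Most values kept their direction and their side of the threshold. The log2 fold changes of the genes did so in 410 of 445 refits other than leaving out a sample, with 29 newly past the threshold, 2 no longer past it and 4 of opposite sign. With a sample left out, 362 of 423 did so, 22 lost their call, 16 gained one and 23 changed sign. The 120 exact permutation comparisons repeated with another pseudocount or with TMM-normalized CPM kept their sign, though none could pass 0.05 in this design. With TMM-normalized CPM the ratios of Grm5 and Adrb1 in KA went from overlapping PBS to above it, and that of Ednrb in PBS from overlapping AAV control to below it. IP to input ratios from TMM-normalized CPM were above 1 SD away from those of FPKM for 11 of 30. Counts of genes past the threshold moved as follows for KA against AAV control in IP: 3 became 5 with DESeq2, with the replicate block and with sequencing run as a covariate, and 6 in run 1 alone, while the genes passing over the series went from 1960 of 9729 to 2557, 3356, 3914 and 4823 of 10474. In input, 2 became 4 with the run covariate and 4 in run 1 (all genes 485 of 10809, 1731 and 4781 of 11489). The ratio difference rose from 4 to 8 genes in run 1 (all genes 1208 of 9180 and 3396 of 9872). The pathway lists went from 42 to 65 without the FPKM filter, where 3933 of 31675 genes passed, and 70 in run 1, so that counts over the lists rose with those over all genes. With the replicate block, calls changed for Gpr37l1 and Adra2a in that IP comparison (−0.65 and −1.02), for Grm3 in KA IP against input (0.45) and, in the ratio differences, for Gpr37l1 and Grm5 against AAV control and Adra2a against PBS, and no other call on the 10 genes changed. For KA against PBS and PBS against AAV control the numbers did not pair the samples. Single samples left out gave 2 to 4 genes for KA against AAV control in IP, 2 to 5 for KA against PBS in IP, 0 to 1 for PBS against AAV control in IP, 0 to 4 for KA against AAV control in input, 3 to 5 for KA against PBS in input and 0 to 6 for PBS against AAV control in input. They gave 6 to 7 for IP against input in AAV control, 4 to 7 in KA, 3 to 7 for the ratio difference of KA against AAV control and 18 to 57 for the lists. Without the filter the sign turned for Grm5 in KA against PBS in IP (0.13) and Gpr37l1 in PBS against AAV control in IP (−0.018), and in run 1 for Adrb1 (−0.072) and S1pr1 (0.034) in KA against AAV control in input. None of these 4 passed, and the cause was not tested. Left-out samples turned the sign within the following ranges, none past the threshold in its main fit: Grm5 in KA against PBS in IP, −0.29 to 0.068. In PBS against AAV control in IP, Ednrb −0.14 to 0.088, Gpr37l1 −0.25 to 0.32 and S1pr1 −0.24 to 0.11. In KA against AAV control in input, Grm3 −0.31 to 0.057, Adrb1 −0.20 to 0.22 and S1pr1 −0.18 to 0.18. In input, S1pr1 in KA against PBS −0.20 to 0.051. In PBS against AAV control in input, Grm5 −0.34 to 0.035, Gpr37l1 −0.095 to 0.49 and S1pr1 −0.068 to 0.25. In the ratio difference of PBS against AAV control, Gpr37l1 −0.28 to 0.15 and S1pr1 −0.29 to 0.031. Low depth limits P2ry1 (13 to 63 counts) and Adra1a (14 to 73 counts).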
